A study of Mus musculus with 6 samples.

Results

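Icam1, Vcam1, Pecam1, Sele and Selp encode adhesion molecules that let leukocytes slow down on, stick to and cross a vessel wall. Sele (E-selectin) and Selp (P-selectin) are lectins that bind sialylated and fucosylated glycans on leukocytes. Icam1, Vcam1 and Pecam1 are surface proteins of the immunoglobulin family that bind integrins or, for Pecam1, another Pecam1 molecule. Sele, Selp and Pecam1 are best known from endothelium and platelets, while Icam1 and Vcam1 are also made by epithelial cells during inflammation. Phorbol esters activate protein kinase C, and through it the transcription factors AP-1 and NF-κB, which are known regulators of several of these genes.

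The 5 genes were taken as a list, and all 5 were found among the 908 named genes of a table of 1246 probe sets. Each was matched by the RefSeq accession that its probe set is named after, and each had 1 probe set. A gene's probe set is chosen by the highest mean over the 6 arrays, so that rule had no choice to make here. Those means were 8.68 for Icam1, 9.57 for Vcam1, 6.03 for Pecam1, 5.12 for Sele and 5.86 for Selp. The list itself was drawn up with earlier results of these data known.

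The samples were MLE-15 cells, a line derived from lung tumours of mice that carry SV40 large T antigen under the surfactant protein C promoter, and used as a model of distal lung epithelium. There were 3 control arrays and 3 arrays of cells treated with PMA (phorbol 12-myristate 13-acetate), at 10 nM for 24 h according to the series text, numbered 1 to 3 in each group. The study asked if PMA induces mucins and the enzymes that put sialic acid or sulfate on glycans. The labels give no agent for the controls, describe no separate cultures for the numbers, and all 6 arrays come from this 1 line, so a p-value reflects only how these arrays spread, and that spread may be technical.

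Values are RMA values on the log2 scale, on which a difference of 1 is a 2-fold difference in measured signal. Array medians lay between 5.64 and 5.71 and lower quartiles between 4.32 and 4.43. No probe set was called present or absent, and the levels of different genes are not compared. In control and PMA alike, the number 1 array lay far from those of numbers 2 and 3, so each result is given by number as well. Of 12 lung epithelial markers listed, 3 were measured: Muc1, between 5.34 and 5.84, Sftpd, between 5.28 and 5.50, and Sftpa1, between 3.29 and 3.89 and below the lower quartile of every array.

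For Icam1, Sele and Selp the 250 bases before the gene start are shown, because phorbol esters are known to activate AP-1 and NF-κB in other settings. The activity of these factors was not measured here, and the windows show only which letters lie there. They are from RefSeq, mouse assembly GRCm38.p6, plus strand, at chr9:21015690-21015939, chr1:164047984-164048233 and chr1:164115014-164115263. Capitals mark every match, on either strand, to the AP-1 letters TGANTCA, the related CRE-like letters TGACNTCA, the NF-κB letters (GGG, any 5 bases, then CC) and a shorter NF-κB form, GGAANTTCC.
Icam1: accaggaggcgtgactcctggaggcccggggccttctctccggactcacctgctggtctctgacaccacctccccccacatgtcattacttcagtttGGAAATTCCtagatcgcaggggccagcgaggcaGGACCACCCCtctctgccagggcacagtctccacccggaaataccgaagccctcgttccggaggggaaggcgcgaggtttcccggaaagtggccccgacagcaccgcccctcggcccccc
Sele: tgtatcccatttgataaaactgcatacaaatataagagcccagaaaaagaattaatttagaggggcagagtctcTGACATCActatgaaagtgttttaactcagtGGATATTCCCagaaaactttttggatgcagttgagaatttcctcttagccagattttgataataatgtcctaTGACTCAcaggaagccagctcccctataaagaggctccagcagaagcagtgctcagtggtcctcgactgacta
Selp: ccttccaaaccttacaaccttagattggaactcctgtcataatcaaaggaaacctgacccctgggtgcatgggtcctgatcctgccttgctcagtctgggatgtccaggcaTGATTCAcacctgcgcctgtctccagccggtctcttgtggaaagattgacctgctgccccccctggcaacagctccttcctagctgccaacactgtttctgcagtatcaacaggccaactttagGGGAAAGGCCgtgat

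The Sele window held TGACTCA from -73 to -67, counted from the gene start, TGACATCA from -176 to -169 and GGATATTCCC from -145 to -136. The Icam1 window held the short form GGAAATTCC from -153 to -145 and GGACCACCCC from -120 to -111. The Selp window held TGATTCA from -139 to -133 and GGGAAAGGCC from -15 to -6. Over 32851 windows of the same length, 6.75% held the AP-1 letters, 7.49% the CRE-like letters, 45.8% the longer NF-κB letters and 0.813% the short form. A match is a match of letters and not a shown binding site.

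Under PMA, 0 of the 5 genes passed limma's test with Benjamini-Hochberg adjustment over all probe sets, as did 0% of the 1246 probe sets. None of the 5 had an unadjusted p under 0.05, against 0.321% of all probe sets, and with the replicate number as a block again 0 of the 5 did, against 3.37%. Group means were higher with PMA for Icam1, Vcam1 and Selp and lower for Sele and Pecam1, with a median difference of 0.018 log2 units over the 5 and 0.0033 over all probe sets. The PMA and control arrays overlapped for all 5, while they did not overlap for 3.37% of all probe sets. In 0 of the 5 did the 3 within-number differences share a sign, against 23.1% of all probe sets.

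Sele, the selectin that endothelium makes on cytokine stimulation, read 4.26, 5.56 and 5.57 in controls 1 to 3 and 4.47, 5.23 and 5.61 in PMA arrays 1 to 3. Both number 1 arrays were low and the groups overlapped. The means were 5.13 ± 0.75 and 5.10 ± 0.58 (SD, n = 3), a PMA difference of -0.026 log2 units (SE 0.47, limma adjusted p = 0.999).
Selp, the selectin stored in granules of platelets and endothelium, read 6.05, 5.78 and 5.73 in controls and 6.20, 5.78 and 5.64 in PMA arrays. Here both number 1 arrays were high. The means were 5.85 ± 0.17 and 5.87 ± 0.29 (SD, n = 3), a PMA difference of 0.018 (SE 0.17, limma adjusted p = 0.999).

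Icam1, the ligand of leukocyte β2 integrins, read 9.19, 8.22 and 8.43 in controls 1 to 3 and 9.17, 8.80 and 8.31 in PMA arrays 1 to 3. The number 1 arrays were the highest in each group, and PMA 2 was the next. The means were 8.61 ± 0.51 and 8.76 ± 0.43 (SD, n = 3), a PMA difference of 0.15 log2 units (SE 0.33, limma adjusted p = 0.999).
Vcam1, which binds the integrin α4β1, read 8.82, 9.65 and 10.04 in controls and 8.57, 10.30 and 10.02 in PMA arrays. The number 1 arrays were the lowest in each group, and PMA 2 was the highest of the 6. The means were 9.50 ± 0.63 and 9.63 ± 0.93 (SD, n = 3), a PMA difference of 0.13 (SE 0.55, limma adjusted p = 0.999).
Pecam1, a molecule of endothelial junctions, platelets and leukocytes, read 5.16, 6.39 and 6.53 in controls and 5.07, 6.57 and 6.44 in PMA arrays. The number 1 arrays were the lowest again, and the other 4 lay within 0.185 log2 units of each other. The means were 6.03 ± 0.75 and 6.03 ± 0.83 (SD, n = 3), a PMA difference of -0.0024 (SE 0.56, limma adjusted p = 0.999).

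**Figure D1:**
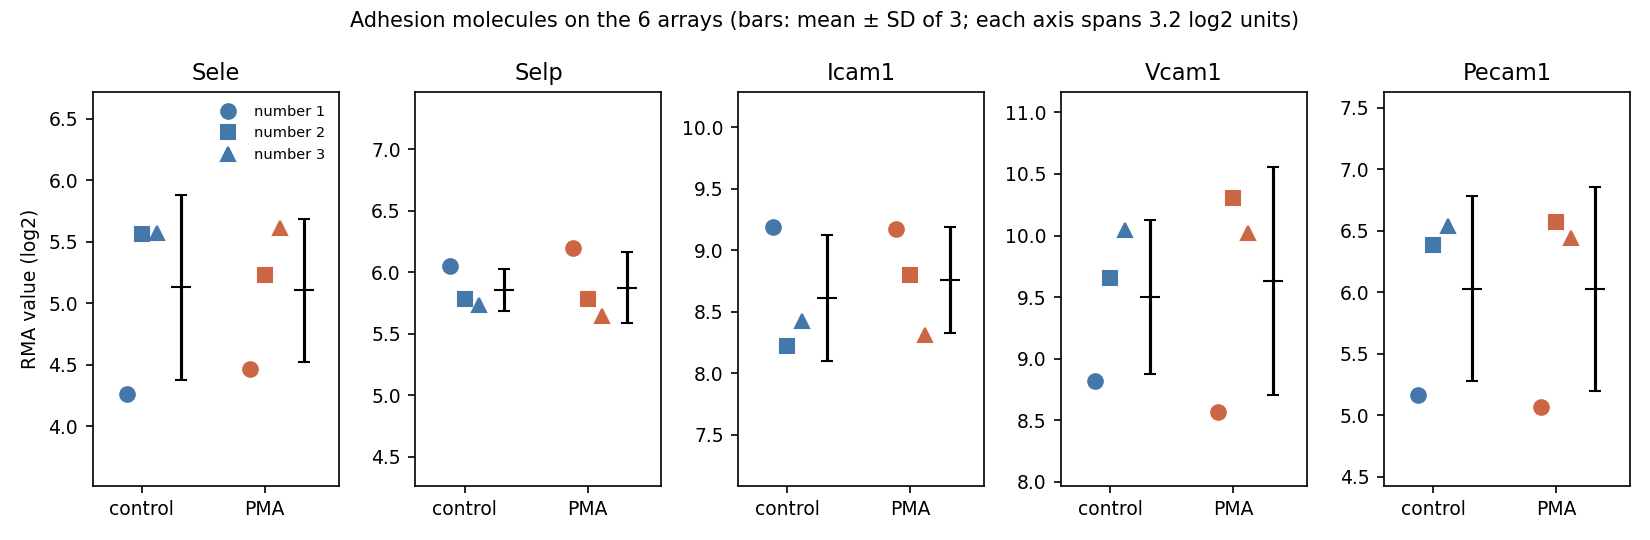
RMA values (log2) of the 5 adhesion genes on each array, with control in blue and PMA in orange, symbols for replicate numbers 1 to 3, and bars for the mean ± SD of 3 arrays. Each panel spans the same height, and the number 1 arrays lie below the other 4 for Sele, Vcam1 and Pecam1 and above them for Icam1 and Selp.

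Compared within numbers, PMA minus control for Icam1 was -0.024 in number 1, 0.58 in number 2 and -0.12 in number 3. For Vcam1 the same differences were -0.25, 0.65 and -0.024. Matched by number, both genes were thus higher with PMA in number 2 alone. Across probe sets, the difference between controls 2 and 3 correlated at only 0.041 with that between PMA arrays 2 and 3. Matching number 2 with 2 and 3 with 3 therefore has little support in the data. In number 2, only 0.883% of all probe sets had a larger absolute difference than Icam1 and 0.642% a larger one than Vcam1. In number 3 the shares were 21.7% and 79.2%, and in number 1 they were 88.4% and 12.4%.

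Sele went the other way in number 2, with differences of 0.21, -0.33 and 0.043 in numbers 1 to 3. In number 2, 5.86% of probe sets had a larger absolute difference than Sele. Pecam1 differed by -0.097, 0.18 and -0.095, and Selp by 0.15, -0.00099 and -0.092. The largest of the 3 differences was in number 2 for Icam1, Vcam1, Pecam1 and Sele but not for Selp. In those genes its sign was opposite to that in numbers 1 and 3. The share of all probe sets with this pattern was not computed, so it is no result about these genes as a set. Each within-number difference rests on 1 array against 1 array and has no replicate check. Control arrays 2 and 3 differed from each other by 0.21 for Icam1 and by 0.39 for Vcam1, with control 2 the lower, and PMA 2 was above PMA 3 by 0.49 and 0.28.

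Without a block, the 95% interval of the PMA difference ran from -0.69 to 0.98 log2 units for Icam1 and from -0.42 to 0.45 for Selp, within 1 log2 unit of 0. It reached past 1 log2 unit on both sides for Vcam1 (-1.26 to 1.51), Pecam1 (-1.39 to 1.39) and Sele (-1.21 to 1.16). Blocking on the number narrowed the intervals to -0.13 to 0.42 for Icam1, -0.20 to 0.45 for Vcam1 and -0.18 to 0.17 for Pecam1. They were -0.25 to 0.20 for Sele and -0.14 to 0.18 for Selp. In that fit a 2-fold difference of the mean lay outside the interval of each of the 5 genes.

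**Figure D2:**
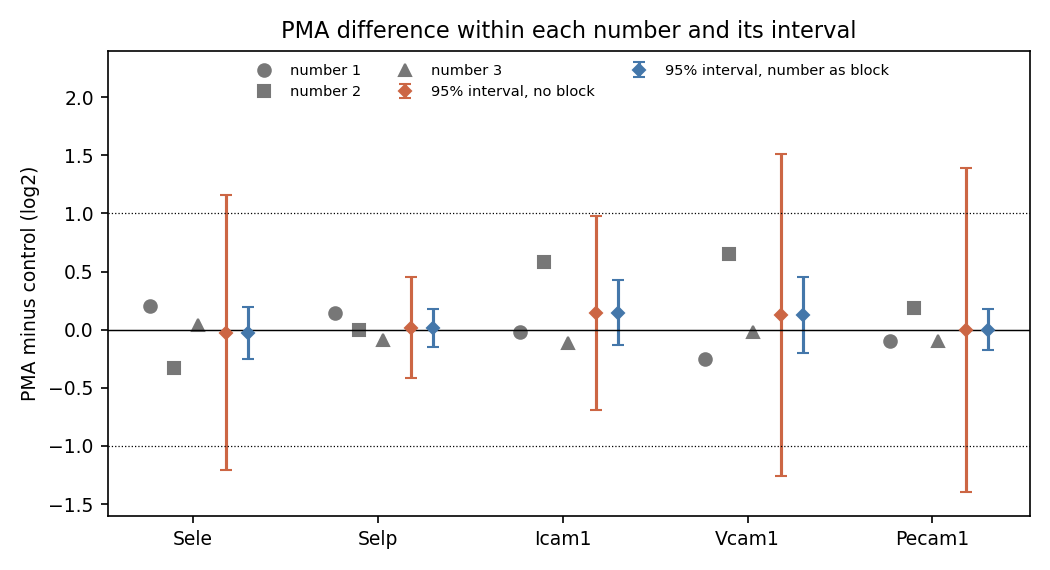
PMA minus control (log2) for the 5 genes, with grey symbols for replicate numbers 1 to 3 and coloured diamonds with 95% intervals from limma without a block (orange) and with the number as a block (blue). Dotted lines mark a 2-fold difference, and the number 2 symbols of Icam1 (0.58) and Vcam1 (0.65) stand above the others.

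An interaction term compared the PMA difference in number 1 with the mean of those in numbers 2 and 3. It does not test how number 2 differs from the others. Number 1 has 1 array in each group, so the error comes from the arrays of numbers 2 and 3. By limma 0 of the 5 genes passed, against 0.0803% of all probe sets, which is 1 unnamed probe set, uc009kma.1_psr1_at, with PMA differences of 1.24, 0.088 and -0.022 in numbers 1 to 3. That probe set was singled out after its values were seen. For Vcam1 the PMA difference was lower in number 1 than in numbers 2 and 3 by an interaction of -0.56 (SE 0.25, limma adjusted p = 0.743, unadjusted p = 0.0584). For Sele the interaction was 0.35 (SE 0.21, limma adjusted p = 0.778), for Icam1 -0.25 (SE 0.27), for Selp 0.19 (SE 0.14) and for Pecam1 -0.14 (SE 0.15).

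The clearest pattern in the 5 genes was the distance of number 1 from numbers 2 and 3. Pecam1, Vcam1 and Sele were lower in number 1, while Icam1 and Selp were higher, in control and PMA arrays alike. This comparison was chosen after number 1 was seen to stand apart, with 2 arrays against 4, so it describes these arrays and is no test for a gene. In bulk RNA, fewer cells that make a transcript and less of it per cell cannot be told apart. All 5 genes were called by limma with PMA as a term, 2 higher and 3 lower, as were 41.7% of all probe sets, 27.5% higher and 14.1% lower. The number 1 arrays did not overlap the other 4 for any of the 5 genes, nor for 55.9% of all probe sets. They lay above the other 4 for 2 of the genes and 37.8% of all probe sets, and below for 3 of the genes and 18.1%.

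Pecam1 had a mean of 5.11 over the number 1 arrays and 6.48 over the other 4, a difference of -1.37 log2 units (SE 0.078), or 2.58-fold. The difference was -1.30 in control and -1.44 in PMA arrays. Vcam1 averaged 8.69 and 10.00, a difference of -1.31 (SE 0.14), or 2.48-fold, with -1.03 in control and -1.59 in PMA arrays. Sele averaged 4.36 and 5.49, a difference of -1.13 (SE 0.11), or 2.19-fold, with -1.30 in control and -0.95 in PMA arrays. Its number 1 values were dim, at 4.26 in control 1 and 4.47 in PMA 1, where the lower quartiles of the arrays were 4.41 and 4.43. These 3 genes were lower by over 1 log2 unit, as were 4.49% of all probe sets.

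Icam1 had a mean of 9.18 over the number 1 arrays and 8.44 over the other 4, a difference of 0.74 log2 units (SE 0.13), or 1.67-fold. It was 0.87 in control and 0.61 in PMA arrays. Selp averaged 6.12 and 5.73, a difference of 0.39 (SE 0.077), or 1.31-fold, with 0.29 in control and 0.49 in PMA arrays. The Selp call was lost with PMA 1 left out, when the difference was 0.29 and control 1 was the only number 1 array. A larger absolute difference than that of Pecam1 was found in 5.54% of all probe sets, than that of Vcam1 in 6.18%, of Sele in 7.95%, of Icam1 in 13.8% and of Selp in 27.8%.
After a further quantile normalization of the arrays the calls over all probe sets were 278 higher and 232 lower, against 343 and 176 as deposited, and all 5 genes were still called.

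**Figure D3:**
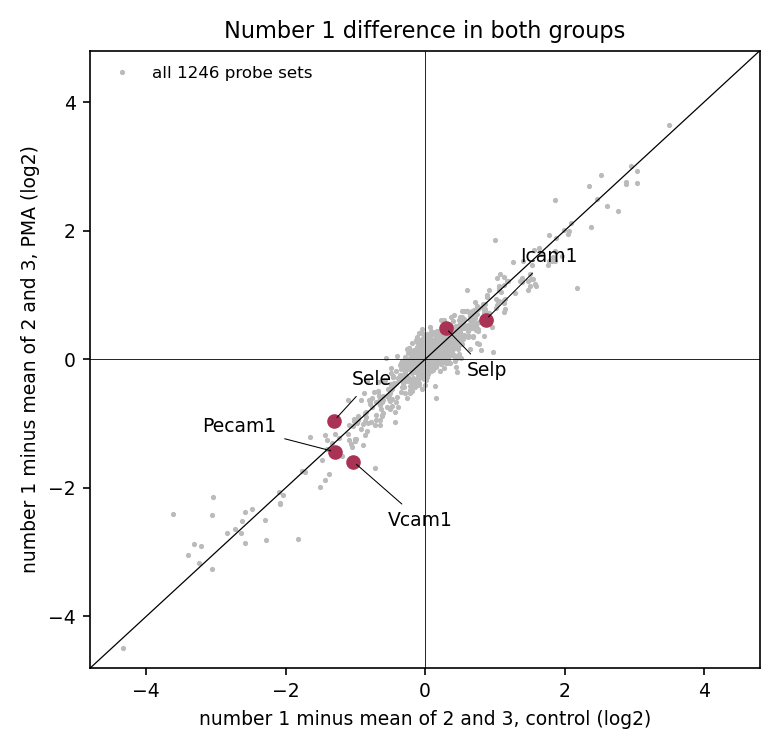
Number 1 minus the mean of numbers 2 and 3 (log2) in control arrays (horizontal) and PMA arrays (vertical) for all 1246 probe sets in grey and the 5 adhesion genes in red, with the line of equal values. Icam1 and Selp lie above 0 on both axes, and Sele, Vcam1 and Pecam1 between -0.95 and -1.59 on both.

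Markers of other cells were read beside these genes. Of the 13 endothelial markers listed besides Pecam1, Sele, Selp and Vcam1, 3 had a named probe set: Icam2, Emcn and Cd34. Their mean level lay between 4.48 and 4.61 in the number 1 arrays and between 4.48 and 4.54 in the other 4, and 0 of the 3 were called for number 1. In control arrays it lay between 4.48 and 4.52 and in PMA arrays between 4.50 and 4.61. Cd34 read between 4.08 and 4.27, below the lower quartile of every array, and Emcn between 4.22 and 4.52, near those quartiles. Dim probe sets such as these may understate a difference. Defining endothelial genes such as Cdh5 and Kdr were not analysed here.

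The 2 measured platelet markers besides Selp, Pf4 and Ppbp, had a mean level between 4.31 and 4.35 in number 1 and between 4.17 and 4.38 in the other arrays, and neither was called. Ppbp read between 3.81 and 4.13, also below the lower quartile of every array. Of 11 leukocyte markers 4 were measured, and their mean ran from 4.72 to 4.99 in number 1 and from 5.46 to 5.57 in the others. Mrc1, the mannose receptor of macrophages, set that gap with a difference of -2.74 (SE 0.12), while Selplg and Adgre1 were not called. Of 7 fibroblast markers 3 were measured, with means of 4.92 to 5.12 in number 1 and 5.56 to 5.94 in the others. Dcn, the proteoglycan decorin, set that gap with a difference of -2.31 (SE 0.23). Pdgfra (0.20) and Lum (0.074) went the other way and were not called, and Lum read between 2.92 and 3.06, below the lower quartile of every array. The measured lung epithelial markers averaged 4.99 to 5.08 in number 1 and 4.64 to 4.79 in the others. Of these 3 markers 2 were called higher, Sftpa1 at 0.52 and Muc1 at 0.33, against 27.5% of all probe sets. Sftpa1, with the largest difference, read below the lower quartile of every array. The part of other cells in the number 1 difference was not tested.

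The ligands and carriers that selectins bind were read in the same fits. Of 15 genes listed as selectins or their carriers, 11 were measured. By limma 0 were called for PMA, and the unadjusted p was under 0.05 in 0. With the number as a block 0 were called and 1, Cd44, had an unadjusted p under 0.05, against 3.37% of all probe sets. Their means were higher with PMA in 10 and lower in 1, with a median of 0.053 log2 units. The share of all probe sets with a higher mean was not computed, here or for the lists below, so these counts are no result about the lists. Selplg, the P-selectin ligand of leukocytes, differed by 0.053 (SE 0.070), and Cd44, the hyaluronan receptor, which can also carry E-selectin ligands, by 0.23 (SE 0.12).
For number 1, 2 of the 11 were called higher and 1 lower, against 27.5% and 14.1% of all probe sets. Those were Vcan at 1.15, Muc1 at 0.33 and the sialomucin Cd164 at -0.85. Selplg (-0.090), Cd34 (-0.080), Glycam1 (0.16) and Madcam1 (-0.060) were not called.

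Selectins recognise sialyl Lewis x and its sulfated forms, and 21 of 22 listed enzymes of their synthesis were measured. For PMA limma called 0, and the unadjusted p was under 0.05 in 0, in the fits with and without the block. The mean was higher with PMA in 13 and lower in 8, with a median of 0.015 log2 units. Fut7, the fucosyltransferase that completes sialyl Lewis x in leukocytes, differed by 0.015 (SE 0.076), and Fut4 by 0.092 (SE 0.067). St3gal4 and St3gal6, which add the α2,3-linked sialic acid, differed by 0.14 (SE 0.10) and 0.072 (SE 0.11). The O-glycan branching enzyme Gcnt1 differed by 0.052 (SE 0.38).
For number 1, 6 of the 21 were called higher and 7 lower, against 27.5% and 14.1% of all probe sets. Chst2 and Chst4, both of which sulfate N-acetylglucosamine in selectin ligands, went opposite ways, at 1.47 (SE 0.072) and -0.59 (SE 0.099). Gcnt1 differed by -0.92 (SE 0.088) and B3gnt3, which extends core 1 O-glycans, by -1.40 (SE 0.11). Fut4, Fut7, St3gal4 and St3gal6 were not called.

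Of 28 other immunoglobulin-family adhesion and recognition genes, 12 were measured, 6 with a higher and 6 with a lower mean with PMA and a median of 0.020 log2 units. Limma called 0 for PMA. The unadjusted p was under 0.05 in 1, Siglech, a Siglec family receptor (difference -0.15, SE 0.061), against 0.321% of all probe sets. Siglech read between 3.58 and 3.83, below the lower quartile of every array. With the block 0 were called, and 2, Siglech and the neural adhesion molecule L1cam, had an unadjusted p under 0.05, against 3.37% of all probe sets. L1cam differed by -0.17 (SE 0.084). Icam2, which binds the same β2 integrin as Icam1, differed by 0.071 (SE 0.069).
For number 1, 2 of the 12 were called higher, Cd83 at 0.52 and Mcam at 0.31, and 0 lower, against 27.5% and 14.1% of all probe sets. The largest absolute difference among these 12 genes, that of Cd83, was below that of Icam1, Vcam1, Sele and Pecam1. It was above that of Selp, at 0.39. The adhesion genes were listed with earlier results known and the number 1 comparison was chosen from these data, so this ranking is no result. Siglecf, between 3.21 and 3.38, and Siglech read below the lower quartile of every array, where a difference may be understated. Of 11 integrin subunits that serve as counter-receptors, 0 had a named probe set, so the integrin side was not analysed here.

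Among 25 listed inflammatory genes that NF-κB is known to induce, 16 were measured, 8 with a higher and 8 with a lower mean with PMA and a median of 0.0072 log2 units. Limma called 0 for PMA, and the unadjusted p was under 0.05 in 0. With the block 0 were called and 1, Junb, had an unadjusted p under 0.05, against 3.37% of all probe sets. The neutrophil chemokine Cxcl1 differed by 0.21 (SE 0.48), Il1b by 0.20 (SE 0.10) and the AP-1 subunit Junb by -0.16 (SE 0.37). These SEs are from the fit without the block, where the distance of number 1 from the other arrays counts as error.
For number 1, 3 of the 16 were called higher and 5 lower, against 27.5% and 14.1% of all probe sets. Ccl20 at -3.09 (SE 0.12) and Cxcl2 at -3.06 (SE 0.10) had the largest differences. The chemokines Cxcl1 at -1.13 and Ccl5 at -0.52 and the AP-1 gene Junb at -0.91 were lower as well. The colony-stimulating factors Csf2 at 2.17 (SE 0.12) and Csf1 at 1.65 (SE 0.090) and the chemokine Cx3cl1 at 0.43 (SE 0.092) were higher. The median number 1 difference was 0.042 over the inflammatory genes and 0.079 over all probe sets. The 5 adhesion genes were listed with earlier results known, and 3 were lower and 2 higher. Their median of -1.13 is the value of Sele and shows no shared direction.

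**Figure D4:**
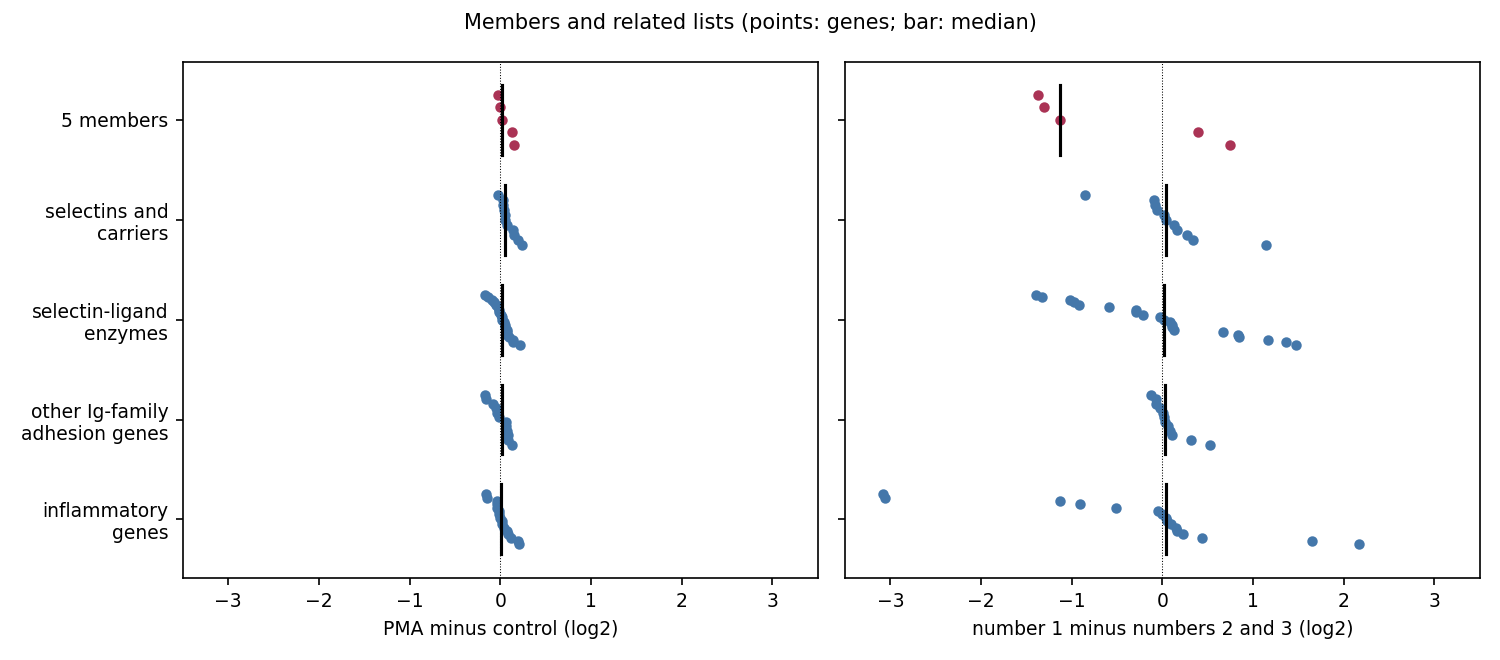
Differences of the 5 adhesion genes (red) and of 4 related lists (blue), for PMA minus control on the left and number 1 minus numbers 2 and 3 on the right, on the same log2 scale, with a bar at each median. All PMA differences shown lie between -0.17 and 0.23, while the number 1 differences run from -3.09 to 2.17.

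Genes whose values followed each adhesion gene most closely over the 6 arrays were found by Pearson r among the 907 other named genes. These correlations are a description, because the 6 arrays fall into number 1 and the rest and that split alone can set a high r. Between 89 and 169 genes reached an r over 0.9 with each of the 5. Closest to Icam1 were Pofut1, a protein O-fucosyltransferase, and Arsb, a lysosomal sulfatase, both at 0.99, then Dgcr2. Closest to Vcam1 were B3gnt5, Dcn and the interferon-γ receptor chain Ifngr1, at 0.99. Closest to Pecam1 were the lysosomal enzyme Aga, Tsnax and the activin antagonist Fst, at 1.00. Closest to Sele were Psph and the EGF receptor ligands Areg and Btc, at 1.00 to 0.99. Closest to Selp were the lysosomal protein Ctsa, Il22ra1 and Cd164l2, at 0.99.
With the mean of each number taken away, the r rests on 3 within-number differences only. The closest genes were then Armc1 for Icam1, Igf2bp1 for Vcam1, Ccl7 for Pecam1, Il4 for Sele and Gnpda1 for Selp. Between 35 and 93 genes reached an r over 0.9 with each of the 5, so the closest ones are hardly set apart. Ccl7 read between 2.95 and 3.15, below the lower quartile of every array.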

How the data were processed

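The authors deposited log2 values made with RMA, per the submitters' processing notes. RMA removes background, brings the arrays to 1 common distribution and combines the probes of a probe set. Not given in the sources used here are its version, the array name, the scanner and the genome build. RNA was extracted with Trizol and labelled as biotinylated cRNA, per the labels' protocols. Arrays give no read depth, and their number limits the precision.

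Values were used as deposited. Probe sets were named by RefSeq accession through the GRCm38.p6 gene table, and 284 stayed unnamed. Comparisons used limma 3.58.1 in R 4.3.3 (lmFit, eBayes), with Benjamini-Hochberg adjustment over 1246 probe sets and a threshold of 0.05. SE is limma's moderated error. For PMA differences it is from the fit without a block, where the distance of number 1 from the other arrays counts as error. The procedure was also run on simulated data with independent noise for each probe set, and its outcome is not given here. Counts cover whole lists, of which 1 gene is not reported here by name. The genes and lists were chosen with earlier results of these data known. Other genes are named for their role in a list, for 1 of the 2 largest differences of a list in either comparison, as a list's called genes or marker, or among the 3 highest r.

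To see if shared replicate numbers pair the arrays, deviations from the group means were correlated across probe sets. Same-numbered arrays gave 0.956, 0.815 and 0.912, all over 0.1, so the number was also fitted as a block. Control 2 with PMA 3 gave 0.886 and control 3 with PMA 2 gave 0.838, so these values do not show that numbers 2 and 3 pair. The difference between controls 2 and 3 correlated at only 0.041 with that between PMA arrays 2 and 3, so it is mainly number 1 that pairs.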

Additional observations from a re-analysis of the deposited data

How the results depend on the processing

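PMA calls stayed at 0 under every alternative run, which were centring on array medians, quantile normalization, a trend and robust fit, leaving out the dimmest 25% of probe sets, the replicate block (0 calls), 1 term for number 1, number 1 left out of both groups, and each array left out. The block changed no call. Over numbers 2 and 3 alone the PMA difference changed sign for Pecam1 (0.045) and Selp (-0.046), and it was 0.31 for Vcam1, 0.23 for Icam1 and -0.14 for Sele. With 1 array left out the PMA differences ran from -0.058 to 0.44 for Icam1, -0.22 to 0.66 for Vcam1, -0.43 to 0.48 for Pecam1, -0.46 to 0.29 for Sele and -0.14 to 0.13 for Selp. These fits hold unequal shares of number 1 arrays. Number 1 calls over all probe sets ran from 403 to 543. With 1 array left out the number 1 differences ran from 0.61 to 0.87 for Icam1 and -1.59 to -1.03 for Vcam1. They ran from -1.44 to -1.30 for Pecam1, -1.30 to -0.95 for Sele and 0.29 to 0.49 for Selp. The Selp call was lost without PMA 1, where control 1 was the only number 1 array. In control and PMA arrays taken alone the values were -1.03 and -1.59 for Vcam1, -1.30 and -0.95 for Sele, and 0.29 and 0.49 for Selp. The 1 interaction call was lost (0 calls) after quantile normalization, and the cause was not tested. The mean over a gene's probe sets was not run, since each gene had 1, and calls within 1 group alone could not be fitted with PMA as a term. Signal over background is unknown, so a dim probe set may understate a difference.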
